A study of Solanum lycopersicum with 6 samples.

Results

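Wound-induced proteinase inhibitors and defence enzymes were followed in leaf RNA of kyp and wild-type (WT) tomato plants. The members are a fixed set of identifiers, drawn up with earlier results of these data known, and make up 10 of the 35821 genes in the count table. They comprise 3 genes for proteinase inhibitor II (PI-II), 2 genes for proteinase inhibitor I (PI-I), 1 gene each for leucine aminopeptidase A (LAP-A), threonine deaminase 2 (TD2) and arginase 2 (ARG2), and 2 genes for polyphenol oxidase (PPO). All 10 identifiers were found once in the table, and their roles are taken from general knowledge of these tomato genes, since the gene table used here matched 0 of the 10 identifiers. The question was how these genes stood in a mutant of KRYPTONITE (KYP), the enzyme that places the silencing mark H3K9me2 on histones.

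Both groups were Solanum lycopersicum of the cultivar M82. The kyp group carried a mutation in KYP and the WT group did not, and 3 biological replicates of each, named kyp 1 to 3 and WT 1 to 3, were sequenced. RNA came from the fourth leaf of plants aged 4 weeks, grown in pots at 24 °C with 16 h of light, with the treatment given as normal in every sample, and no wounding is named. The sources used here give neither the time of day of the harvest nor whether the kyp plants came from 1 or several lines. KYP itself is not paired with an identifier in the tables used here, so its counts are not given and the mutation was not checked.

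When a tomato leaf is chewed or crushed, the peptide systemin and the hormone jasmonate spread the alarm, and the transcription factor MYC2, once freed of the JAZ repressors, turns on a battery of late defence genes. The products act mainly in the gut of the insect that eats the leaf. PI-I and PI-II block its digestive proteases, TD2 and ARG2 destroy the amino acids threonine and arginine, LAP-A trims proteins and also modulates the wound response of the plant, and PPO turns phenolics into reactive quinones. In an undamaged leaf of tomato these genes are generally less active than after wounding. Their levels in the WT leaves studied here are given below and span a wide range.

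The libraries held from 7283885 to 10091231 counts in kyp and from 8925379 to 11012421 in WT. Levels are given in CPM, which are counts scaled to the library total and corrected by the trimmed mean of M-values (TMM). A count of 3, used as the detection floor of a library, equalled 0.297 to 0.422 CPM in kyp and 0.264 to 0.335 CPM in WT. This floor covers counting error only. Differences were tested with edgeR's quasi-likelihood test over the 20154 genes that passed its filter on low counts, and a gene was called at a Benjamini-Hochberg adjusted p under 0.05. Of all tested genes 24.9% were called, 14.8% as higher and 10.2% as lower in kyp. A list of 14 identifiers for light-harvesting and Rubisco small-subunit genes served as a check of the tissue. It had 12 rows in the table, which summed to 19912 to 24686 CPM in kyp and 13631 to 21259 CPM in WT. Of a list of 6 floral identity genes, 5 were not tested and had at most 8 counts in any library, and the 1 tested gene was not called. The identifiers of these and the other lists were assigned from general knowledge of tomato and were not checked against an annotation.

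Of the 10 wound genes 8 passed the filter. Both PI-I genes, LAP-A, TD2 and ARG2 were higher in kyp, with fold changes from 1.70 to 3.77, and both PPO genes were not called. The PI-II gene Solyc03g020080 was also called higher, but it passed the filter only through kyp. There 3 libraries had 10 counts or more, against 1 in WT. With kyp at the WT level this gene would not have been tested. The 6 called genes are set against a background of 14.8% of tested genes called higher. All 6 had every kyp library above every WT library, which was the case for 21.9% of tested genes, while 42.4% had no overlap in either direction. No wound gene was called lower in the main edgeR fit or by DESeq2 or limma-voom. The PPO Solyc08g074620, lower in kyp, had an unadjusted p under 0.05 in the main edgeR fit. It was called lower by edgeR without the filter and also without kyp 3. The median log2 fold change was 0.89 over the 8 tested wound genes, 0.85 over the 7 that had 10 counts or more in every library, of which 5 were called, and -0.01 over all tested genes. Both untested members are outside these figures. In bulk leaf RNA, more cells that express a gene and more RNA per cell cannot be told apart.

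**Figure D1:**
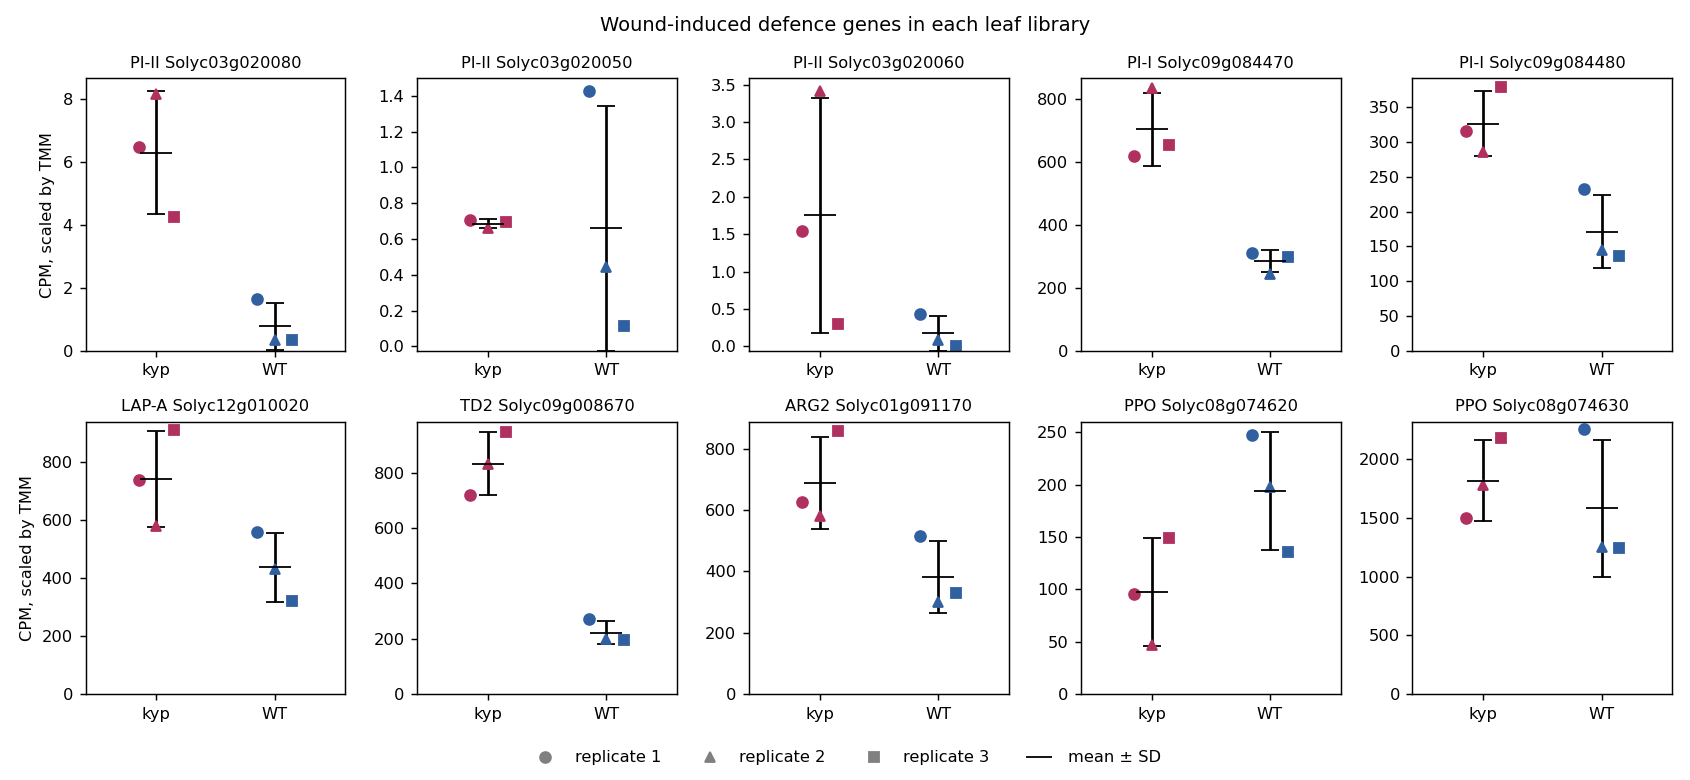
CPM scaled by TMM (vertical axis, linear, a separate scale for each gene) of the 10 wound genes in kyp (red, left) and WT (blue, right), with a symbol for each replicate and the mean ± SD of 3 libraries in black. Both PI-I genes, LAP-A, TD2, ARG2 and the PI-II gene Solyc03g020080 have all 3 kyp libraries above all 3 WT libraries, whereas the PPO genes and the other PI-II genes overlap between genotypes.

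The inhibitors were examined first, beginning with PI-II, which blocks trypsin and chymotrypsin and is the classical marker of the systemic wound response. Solyc03g020080 had 46, 74 and 43 counts in the kyp libraries and 15, 4 and 3 counts in the WT libraries. That equals 6.48, 8.14 and 4.26 CPM in kyp and 1.64, 0.353 and 0.335 CPM in WT. The gene was low in every leaf, and the lowest kyp library still lay above the highest WT library. The mean was 6.29 ± 1.94 CPM in kyp and 0.777 ± 0.750 CPM in WT (SD, n = 3 each), with a log2 fold change of 3.03 ± 0.52 (SE) and an adjusted p of 0.00344 by edgeR. The size rests partly on WT 1, without which the log2 fold change was 4.13, and the 95% interval with all libraries ran from 1.85 to 4.21. The gene passed the filter only through kyp, and with kyp at the WT level it would not have been tested. Tested without the filter, it had a log2 fold change of 3.02 and an adjusted p of 0.00064 by edgeR.

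The other PI-II genes were low, with at most 31 counts in a library, and did not pass the filter. Solyc03g020050 had 5, 6 and 7 counts in kyp and 13, 5 and 1 counts in WT, or 18 counts in all in kyp and 19 in WT. At this depth no difference between genotypes was detectable for it. Solyc03g020060 had 11, 31 and 3 counts in kyp and 4, 1 and 0 counts in WT, so that kyp 1 and kyp 2 lay above all WT libraries and kyp 3 did not. Tested without the filter, Solyc03g020060 had an adjusted p of 0.0287 by edgeR, whereas Solyc03g020050 had one of 0.961. Solyc03g020060 passed the filter in 4 of the 6 fits that left out a library, only through kyp 1 and kyp 2. With kyp at the WT level this gene would not have entered these fits. Their adjusted p-values by edgeR ran from 0.0143 without kyp 3, the lowest kyp library of this gene, to 0.159. The PI-II genes have neighbouring identifiers, and reads that fit several similar copies may have been lost or divided among them, so the split of counts within the family is uncertain.

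PI-I, which acts mainly on chymotrypsin-like proteases, was represented by genes with far more counts. Solyc09g084470 had 618, 834 and 654 CPM in kyp, against 309, 244 and 298 CPM in WT. The lowest kyp library lay far above the highest WT library. The mean was 702 ± 116 CPM in kyp and 284 ± 34.9 CPM in WT (SD, n = 3 each), and the gene rose 2.48-fold, with a log2 fold change of 1.31 ± 0.15 (SE) and an adjusted p of 0.000402 by edgeR. Solyc09g084480, whose identifier is the next one, had 315, 286 and 379 CPM in kyp and 233, 145 and 137 CPM in WT. The groups did not overlap, but WT 1 came close to the lowest kyp library. Its mean was 327 ± 47.2 CPM in kyp and 171 ± 53.1 CPM in WT (SD, n = 3 each), 1.91-fold higher in kyp (edgeR adjusted p = 0.0116). Summed, the PI-I genes held 1029 ± 93.6 CPM in kyp and 455 ± 78.3 CPM in WT (SD, n = 3 each).

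The enzymes that remove amino acids followed. TD2 (Solyc09g008670), a threonine deaminase that stays active in the insect gut, had the lowest adjusted p of the wound genes. Its counts were 5115, 7571 and 9551 in kyp and 2463, 2236 and 1759 in WT, or 720.3, 833 and 947 CPM in kyp and 269.8, 197 and 197 CPM in WT. The genotypes were set far apart relative to their spread, with means of 833 ± 113 CPM in kyp and 221 ± 42.1 CPM in WT (SD, n = 3 each). TD2 rose 3.77-fold, and its log2 fold change was 1.91 ± 0.16 (SE), with an adjusted p of 0.000104 by edgeR. Of all tested genes, 4.52% had a larger log2 fold change.

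ARG2 (Solyc01g091170), an arginase, had 626, 580.4 and 859.8 CPM in kyp and 517, 299.7 and 330.3 CPM in WT. WT 1 lay just under the lowest kyp library. The mean was 689 ± 150.0 CPM in kyp and 382 ± 118 CPM in WT (SD, n = 3 each), and the gene rose 1.80-fold with an adjusted p of 0.0259 by edgeR. The call was lost without kyp 1, kyp 3, WT 2 or WT 3, with adjusted p-values from 0.0508 to 0.0886 and log2 fold changes from 0.66 to 0.91, against 0.85 with all 6 libraries.

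LAP-A (Solyc12g010020), an aminopeptidase that accumulates late in the wound response, had 736, 577 and 908 CPM in kyp and 559, 430.0 and 321 CPM in WT. Here too WT 1 lay only slightly under the lowest kyp library, which was kyp 2. The mean was 740.6 ± 165 CPM in kyp and 437 ± 119 CPM in WT (SD, n = 3 each), 1.70-fold higher in kyp (edgeR adjusted p = 0.0366). The call was lost without kyp 1, kyp 3, WT 2 or WT 3, with adjusted p-values from 0.0827 to 0.122, and it was also lost with library totals alone in place of TMM, at an adjusted p of 0.0508.

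**Figure D2:**
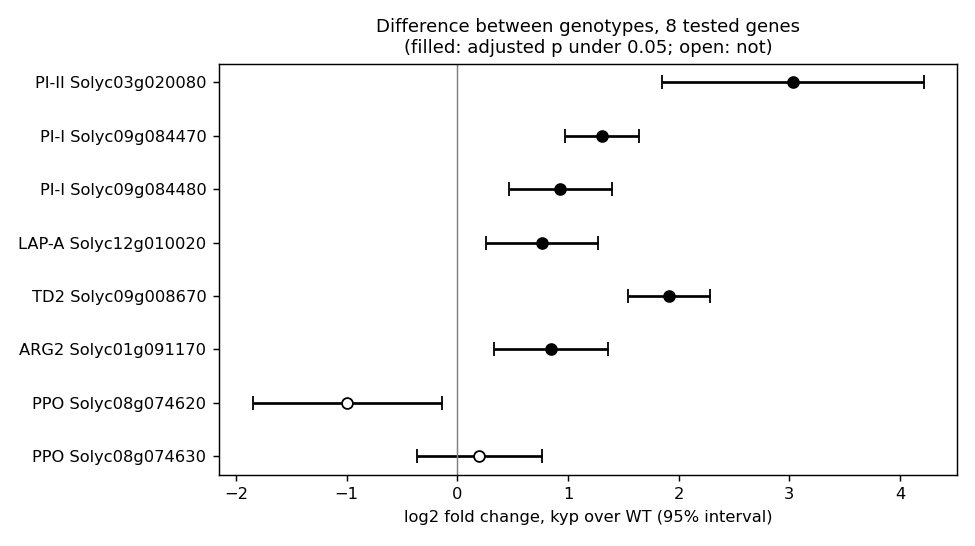
Log2 fold change, kyp over WT (horizontal axis), of the 8 tested wound genes with the 95% interval of edgeR's fit; filled points have an adjusted p under 0.05. The intervals of the 6 called genes lie above 0, that of PPO Solyc08g074620 runs from -1.85 to -0.14, and that of PPO Solyc08g074630 from -0.37 to 0.77.

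PPO oxidizes phenolics into quinones that bind to dietary protein, and in tomato it is abundant in glandular trichomes and is also wound-induced. Solyc08g074630 had 10644, 16174 and 21996 counts in kyp and 20617, 14212 and 11104 counts in WT, the most of any wound gene. In CPM these are 1499, 1779 and 2180.2 in kyp and 2258, 1253 and 1241 in WT. The highest library of all was WT 1, and the groups overlapped throughout. The mean was 1819 ± 342 CPM in kyp and 1584 ± 584 CPM in WT (SD, n = 3 each), with a log2 fold change of 0.20 and an adjusted p of 0.599 by edgeR. The 95% interval, from -0.37 to 0.77 on the log2 scale, leaves room for a change as large as that of LAP-A.

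Solyc08g074620, the adjacent PPO identifier, was the only wound gene with a lower mean in kyp. Its CPM were 95.9, 46.3 and 149 in kyp and 248, 198 and 135 in WT. kyp 1 and kyp 2 lay under all WT libraries, whereas kyp 3 lay above WT 3. The mean was 97.2 ± 51.5 CPM in kyp and 194 ± 56.3 CPM in WT (SD, n = 3 each), with a log2 fold change of -0.99 ± 0.38 (SE) and an adjusted p of 0.0882 by edgeR, which misses the threshold. Without kyp 3 the log2 fold change was -1.45 with an adjusted p of 0.0275 by edgeR, and without the filter on low counts the adjusted p was 0.0449. Of 7 identifiers listed for glandular trichomes, 5 were in the table and summed to 203 ± 25.4 CPM in kyp and 229 ± 19.3 CPM in WT (SD, n = 3 each). Of these, 4 were tested, 1 was lower and 0 were higher in kyp, and Solyc01g105870 had 1 count in all. Of all tested genes 10.2% were called lower and 14.8% higher. With only 4 tested genes, the share of the list cannot be compared with this background, and nothing about trichomes is drawn from it. The gene called lower, Solyc08g005050, had a log2 fold change of -0.26 and an adjusted p of 0.0442 by edgeR. Its call was lost without any one of the 6 libraries (0.061 to 0.149). It was also lost with DESeq2 (0.0648), upper-quartile factors (0.0538), no filter (0.0624) or at least 10 counts in every library (0.0532). The 3 not called had log2 fold changes of -1.06 (Solyc08g005680, adjusted p = 0.137 by edgeR), -0.27 (Solyc06g059930) and 0.31 (Solyc02g080260). The part of trichomes in the PPO values was not tested.

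Because both PPO genes were read in the same libraries, their ratio does not depend on the scaling. Counts of Solyc08g074620 were 6.40%, 2.60% and 6.85% of those of Solyc08g074630 in kyp, against 11.0%, 15.8% and 10.9% in WT. All kyp ratios lay under all WT ratios. The PPO genes have adjacent identifiers, and reads that fit both copies may have been lost or divided between them. The split of counts between the PPO genes is therefore uncertain, as for PI-II. For TD2 relative to ARG2 the ratios were 115%, 143% and 110.1% in kyp and 52.2%, 65.8% and 59.5% in WT, again without overlap. By contrast, LAP-A relative to ARG2 gave 118%, 99.5% and 106% in kyp and 108%, 143% and 97.1% in WT, and the PI-I gene Solyc09g084470 relative to Solyc09g084480 gave 196%, 291% and 173% in kyp and 133%, 168% and 218% in WT, so these pairs overlapped. The 4 pairs were chosen after the values were seen and were not tested. Such a ratio describes how the counts of a pair of genes stood to each other in each library. How many other gene pairs differ in this way was not examined. The ratio does not compare the transcript levels of the genes, which would need the gene lengths.

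The wound genes also varied between replicates of a genotype. In the 7 genes that had 100 counts or more in each of the 6 libraries, WT 1 was the highest WT library for 7 of 7 and kyp 3 the highest kyp library for 6 of 7, with PI-I Solyc09g084470 the exception. The lowest WT library was WT 3 for 5 genes and WT 2 for 2. Among the 1895 tested genes that averaged 100 CPM or more in both genotypes, the highest library exceeded the lowest by a median factor of 1.16 in kyp and 1.15 in WT. For the 6 wound genes among them the median factor was 1.40 in kyp, with a range of 1.31 to 1.57, and 1.71 in WT, with a range of 1.27 to 1.82. PPO Solyc08g074620, just outside this set, had a factor of 3.23 in kyp and 1.83 in WT. The share of all counts that fell on the 10 genes was 0.4503%, 0.476% and 0.608% in kyp and 0.4495%, 0.285% and 0.267% in WT, so that WT 1 nearly reached kyp 1. PPO Solyc08g074630 gave the most counts of the 10 in every library.

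**Figure D3:**
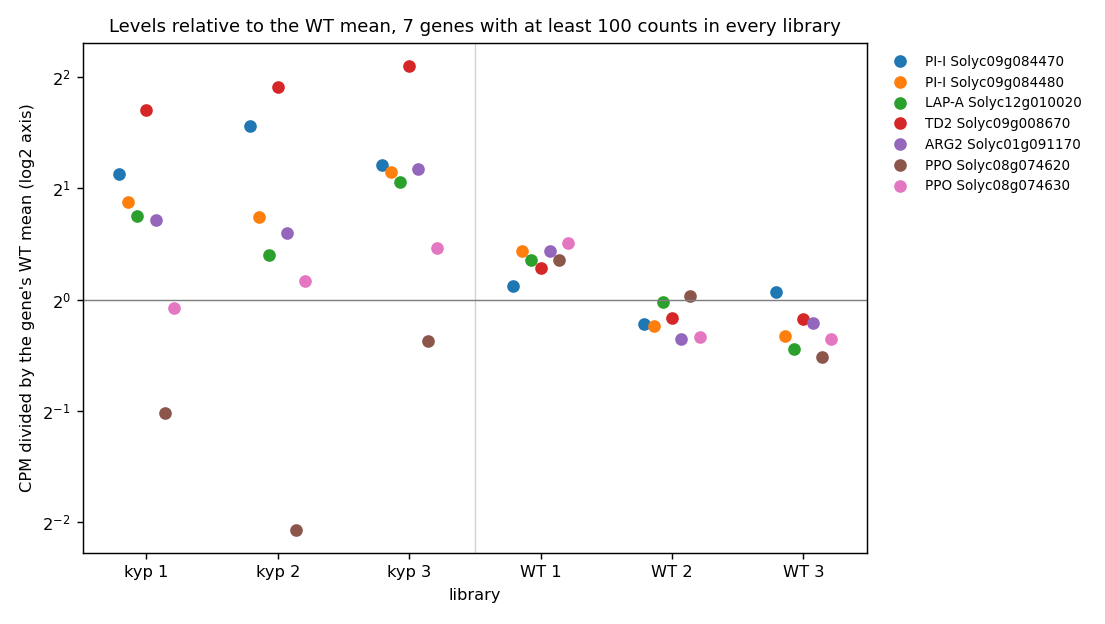
CPM divided by the WT mean of the gene (vertical axis, log2 scale) in each library (horizontal axis, kyp left and WT right) for the 7 wound genes that had 100 counts or more in each library. TD2 lies highest in every kyp library, PPO Solyc08g074620 lies lowest, and WT 1 is the highest of the WT libraries for all 7 genes.

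Which genes move most like PPO Solyc08g074630, the wound gene with the most counts, was described by Pearson's r of log2 CPM over the 6 libraries. The leading ones were Solyc12g013880 (r = 0.99), Solyc11g013820 (r = 0.98) and TomatoPan057950 (r = 0.98), chosen out of 20154 tested genes. Their amplitude was small, since Solyc12g013880 had 92, 127 and 148 counts in kyp and 137, 142 and 110 counts in WT, and TomatoPan057950 had at most 18 counts. With 6 libraries that share their depth and scaling, these values are a description only.

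Several wound genes lie in runs of similar numbers, so the genes whose identifier number lay within 100 of a member were examined by position alone. There were 91 of them, of which 64 were tested, 9 were higher and 3 were lower in kyp, and their median log2 fold change was 0.09. These are 14.1% and 4.69% of the tested neighbours, against 14.8% higher and 10.2% lower of all tested genes, so the share called higher was near that of the background. With library totals alone 8 were higher and 7 lower. Of the neighbours, 9 are also on the list of other proteinase inhibitors and wound enzymes described below, 8 of them tested and 5 called. The called ones, each higher in kyp, are Solyc09g084440, Solyc09g084450, Solyc09g084490, Solyc12g010030 and Solyc08g074683. The share called higher is therefore not one of unrelated genes. In the block of the PI-I genes, 3 of 4 tested neighbours were higher, and their median was 1.28. All 4 are on that list of other inhibitors and wound enzymes. In the blocks of LAP-A, TD2 and ARG2 the medians were -0.03, -0.21 and -0.002, with 1, 0 and 1 genes higher and 1, 1 and 0 lower of 14, 10 and 16 tested. In the PPO block 3 of 13 tested genes were higher, 1 was lower and the median was 0.10, and in the PI-II block 1 of 7 was higher, with a median of 0.46.

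The 12 neighbours that were called are named here as a description, including those outside the rule for named genes. Next to the PI-I members, Solyc09g084440 had 190, 268 and 306 counts in kyp and 74, 102 and 96 counts in WT (log2 fold change 1.64, adjusted p = 9.93e-05 by edgeR), and Solyc09g084450 had 450, 629 and 710 counts in kyp and 172, 252 and 188 in WT (1.71, adjusted p = 2.16e-05). Solyc09g084490 had 587 ± 30.9 CPM in kyp and 311 ± 40.9 CPM in WT (SD, n = 3 each) and rose by 0.92 on the log2 scale, with an adjusted p of 0.000816 by edgeR. Thus 5 of the 6 rows from Solyc09g084440 to Solyc09g084490 were higher in kyp, and Solyc09g084460 was not called.

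Between the PI-II members, Solyc03g020070 had 45, 33 and 78 counts in kyp and 2, 2 and 3 counts in WT, with an adjusted p of 0.000221 by edgeR. It was at or under the floor in every WT library and so passed the filter only through kyp, and its kyp level of 5.90 CPM was near that of Solyc03g020080. Next to LAP-A, Solyc12g010030 had 2839, 2955 and 5468 counts in kyp and 2409, 2387 and 1339 counts in WT and rose by 1.02 on the log2 scale, with an adjusted p of 0.014 by edgeR. Its kyp 3 library was the highest of the genotype, as for LAP-A itself. After the PPO members, Solyc08g074650 had 168, 350 and 360 counts in kyp and 39, 60 and 24 counts in WT (log2 fold change 2.98, adjusted p = 0.000124 by edgeR), and Solyc08g074655 had 32, 36 and 51 counts in kyp and 3, 7 and 4 counts in WT (3.22, adjusted p = 0.000177), the second of which passed the filter only through kyp. Solyc08g074683 had 670, 1113 and 1198 counts in kyp and 770, 451 and 226 counts in WT, and its log2 fold change of 1.17 became 1.78 without WT 1. Its adjusted p of 0.0459 by edgeR became 0.0874 with DESeq2, 0.0521 with library totals alone, 0.0514 with at least 10 counts in every library and 0.0724 to 0.141 in the 5 fits without kyp 1, kyp 2, kyp 3, WT 2 or WT 3. Solyc01g091260, near ARG2, was higher in kyp, with a log2 fold change of 1.72. Solyc08g074550, Solyc09g008700 and Solyc12g009980 were lower, with log2 fold changes of -0.81, -0.44 and -0.32.

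**Figure D4:**
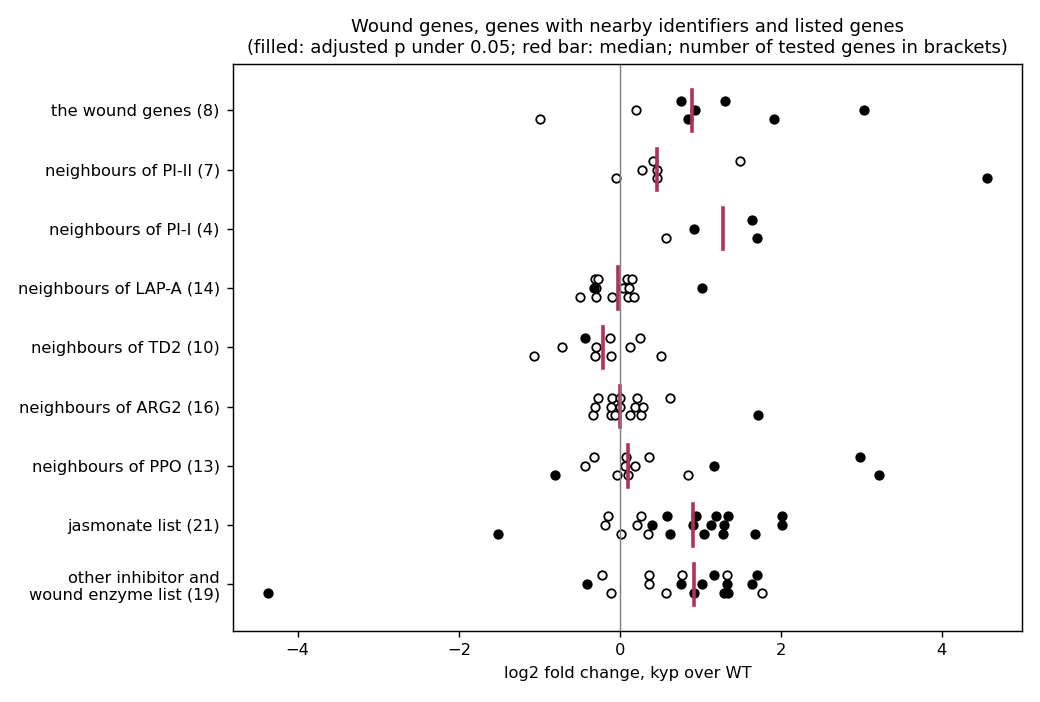
Log2 fold change, kyp over WT (horizontal axis), of tested genes, grouped as the wound genes, the genes with nearby identifiers around each member class, and both lists of related genes; filled points have an adjusted p under 0.05 and red bars are medians. The neighbours of PI-I have a median of 1.28, and those of LAP-A, TD2 and ARG2 lie around 0. All tested neighbours of PI-I are also on the list of other inhibitors and wound enzymes. The lists, drawn up with earlier results of these data known, have medians of 0.91 and 0.92.

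The wound response was then followed upstream and sideways. A list of 25 identifiers for jasmonate synthesis, systemin, MYC2 and its partners and the JAZ repressors had 24 rows in the table and 21 tested genes, of which 14 were higher and 1 was lower in kyp. These are 66.7% and 4.76% of the tested genes of the list, against 14.8% and 10.2% of all tested genes. Their median log2 fold change was 0.91, against -0.01 over all tested genes. The list was drawn up with earlier results of these data known, so its shares and median are a description only. Summed, the rows of the list held 4417, 3417 and 4483 CPM in kyp and 2721, 2975 and 2584 CPM in WT, without overlap. The largest rises were those of Solyc08g036640, with 111, 106 and 245 counts in kyp and 44, 39 and 41 counts in WT, and Solyc08g036660, with 51, 32 and 107 counts in kyp and 21, 14 and 16 counts in WT. Their log2 fold changes were 2.02 and 2.02, with adjusted p-values of 0.00138 and 0.00969 by edgeR. Solyc10g011660 was the one gene lower in kyp, with 712, 507 and 519 counts in kyp and 1682, 2970 and 1260 counts in WT (log2 fold change -1.51, adjusted p = 0.00626 by edgeR). In WT the wound genes were highest in WT 1, whereas the sum of the jasmonate list was highest in WT 2. In kyp that sum was highest in kyp 3, which was also the highest kyp library for 6 of the 7 wound genes compared above. Such orders of libraries are a description only.

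A second list, of 23 identifiers for other proteinase inhibitors and wound enzymes, had 21 rows and 19 tested genes, of which 9 were higher and 2 were lower in kyp. These are 47.4% and 10.5% of the tested genes of the list, against 14.8% and 10.2% of all tested genes, and the median log2 fold change was 0.92, against -0.01 over all tested genes. This list too was drawn up with earlier results of these data known. Of its rows 9 are also neighbours counted above, among them 5 called genes. The list summed to 5595, 5910.3 and 6416 CPM in kyp and 3399.8, 2502 and 3037 CPM in WT, so that the lowest kyp library lay well above the highest WT library. Lower in kyp were Solyc11g021020, with 0, 1 and 2 counts in kyp and 41, 23 and 12 counts in WT (adjusted p = 0.00402 by edgeR), which passed the filter only through WT, and Solyc10g083760, with 958, 1147 and 1567 counts in kyp and 1725, 2038 and 1656 counts in WT, whose log2 fold change was only -0.41. Without kyp 1 or WT 1 the call of Solyc10g083760 was lost, at adjusted p-values of 0.0601 and 0.0658 by edgeR.

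Genes of other functions were counted in the same libraries for comparison. In the list of light-harvesting and Rubisco genes, 4 of 12 tested genes (33.3%, against 14.8% of all tested genes) were higher and 0 were lower in kyp, and the list summed to 21966 ± 2455 CPM in kyp and 17042 ± 3877 CPM in WT (SD, n = 3 each). Solyc02g070980 and Solyc02g071000 had the largest differences, with log2 fold changes of 0.83 and 0.78 and adjusted p-values of 0.0259 and 0.0355 by edgeR. The calls of both were lost without kyp 1, kyp 2, WT 1 or WT 2, and that of Solyc02g071000 also without kyp 3, with adjusted p-values from 0.0513 to 0.112. The lowest library of the list was WT 2 and its highest WT library was WT 3. For the 7 wound genes above, the highest WT library was WT 1. Such an order of 3 libraries is a description only. The part of leaf makeup in the levels of the wound genes was not tested.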

How the data were processed

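Leaf RNA of 3 kyp and 3 WT samples of M82 was sequenced in paired-end reads from directional libraries. The authors deposited counts, whole numbers of reads per gene without normalization. The submitters' processing notes name Trimmomatic 0.38, HISAT2 2.2.1, SAMtools 1.9 and featureCounts, whereas the study's methods name Bowtie2 on the M82 genome with removal of duplicates and poorly mapped reads. Which of these made the counts, and the strand setting, are not given in the sources used here. Removal of duplicates would lower abundant transcripts such as PPO, and a limit on mapping quality would lower similar copies.

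All 35821 genes entered 1 fit in R 4.3.3 with edgeR 4.0.16 (filterByExpr, minimum count 10 and total 15, TMM, estimateDisp, glmQLFit, glmQLFTest), genotype as the only factor and p-values adjusted over all tested genes. The SE of a log2 fold change is its size divided by the square root of F. The test was checked on simulated data. The replicates of a genotype differed by more than sampling noise.

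Named were all 10 members, in each list and among the neighbours the 2 called genes with the largest change in each direction without overlap, and the 3 genes most like the member with the most counts. Lists and members were chosen with earlier results of these data known. The lists were jasmonate genes, other inhibitors and wound enzymes, glandular trichome, leaf photosynthesis, flower and fruit. Alternatives were DESeq2 1.42.0, limma-voom (limma 3.58.1), upper-quartile factors, library totals, no filter beyond 1 count, 10 counts in every library, a replicate block and leaving out each library. No genome was used, so coordinates and sequences are not given.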

Additional observations from a re-analysis of the deposited data

How the results depend on the processing

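The 6 wound genes called higher became 6 with DESeq2, limma-voom, upper-quartile factors and the replicate block, 5 with library totals alone or with at least 10 counts in every library (which removes Solyc03g020080 from the test), 7 without the filter and 4 to 6 with 1 library left out. The count lower, 0, was 1 without the filter and 0 to 1 with 1 library left out, each time Solyc08g074620. Of 107 alternative fits of single wound genes, 0 changed direction. Over all tested genes, 2982 higher and 2046 lower became 2265 to 3228 and 1211 to 2203 with 1 library left out, with 1320 lower without kyp 1, 1211 without kyp 3, 1338 without WT 1 and 1273 without WT 2. The cause was not tested. Libraries share only replicate numbers across genotypes, and deviations of same-numbered libraries correlated at 0.18, 0.07 and -0.05. The replicate block gave 2987 higher and 1880 lower; among genes named here it ended 3 calls, of Solyc12g009980, Solyc02g071000 and Solyc08g005050 (adjusted p = 0.0552, 0.052 and 0.0905 by edgeR), and changed no other. For the neighbours and lists, recomputed after the data were seen, the 3 neighbours lower became 7 with library totals alone and 1 to 5 with 1 library left out, and the 2 lower genes of the second list became 1 with at least 10 counts in every library and 1 to 2 with 1 library left out. The calls of Solyc09g008700 were lost without kyp 3, WT 1 or WT 2, and those of Solyc12g009980 without kyp 1, kyp 3, WT 1 or WT 3. Counts near the floor limit both untested PI-II genes.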

Other observations

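Of 7 identifiers listed for fruit, 3 had no counts in any library and 3 were tested. Of the 3 tested, 2 (66.7%) were called higher and 0 lower in kyp, against 14.8% and 10.2% of all tested genes. Solyc01g095080 had 28, 59 and 18 counts in kyp and 8, 13 and 0 counts in WT, with an adjusted p of 0.0332 by edgeR, which lay between 0.0511 and 0.0777 without kyp 1, kyp 2, WT 1, WT 2 or WT 3 and was 0.0531 by limma-voom. It passed the filter only through kyp. Solyc09g089580 had 68, 82 and 105 counts in kyp and 50, 78 and 61 counts in WT and rose by 0.60 on the log2 scale, with an adjusted p of 0.0293 by edgeR, which lay between 0.06 and 0.104 without kyp 1, kyp 3, WT 1 or WT 2 and was 0.0522 by DESeq2.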
